A study of Mus musculus with 72 samples.

Results

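An adeno-associated virus can act on a tissue apart from the gene it delivers, and the experiment described here addressed this in *Bmal1*-KO muscle with a vector that carries GFP in place of *Bmal1*. It consists of the 3 KO+GFP and the 3 KO control libraries that the authors deposited in a table of their own, 6 of the 72 RNA-Seq libraries in the series, and all 6 entered the comparison. All the muscles were gastrocnemius of male mice at 10 weeks of age that lack BMAL1 in every tissue, and all were sequenced at Novogene from poly(A)-selected RNA. The KO+GFP mice had received AAV9-CK6-GFP through the circulation as pups. CK6 is a promoter that is active in skeletal muscle and GFP is a fluorescent jellyfish protein. The study gives ZT1, early in the light phase, as the time of its RNA-Seq collections without naming these muscles separately, and whether the KO controls were injected is not given in the sources used here. The rest of the series holds WT, *Bmal1*-KO, and KO+AAV mice, the last with HA-tagged *Bmal1* in the same kind of vector, and its 10-week gastrocnemius libraries (6 KO and 7 KO+AAV) are used below only for ranges and for values set side by side. The labels number the libraries of a group without naming the animals, so *P* values measure the spread between these libraries.

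AAV9 is a small virus without an envelope whose vectors reach skeletal muscle, heart, and liver through the blood and persist in muscle fibers mainly as DNA circles outside the chromosomes. Capsids can be bound by antibodies and complement, vector DNA can be sensed by Toll-like receptors, and a foreign protein such as GFP can be presented to T cells. The gastrocnemius is a mixed muscle, with fast glycolytic fibers that express *Myh4* over most of its mass and fast oxidative (*Myh2*) and slow (*Myh7*) fibers toward its depth.

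*Arntl*, the gene for BMAL1, was measured first. Its normalized counts, the reads on a gene divided by 1 size factor per library, were 149.7, 70.2, and 123 in the KO+GFP libraries and 113, 119, and 121 in the KO control libraries, so the groups overlapped. The exact two-sided permutation test gave *P* = 1, where the smallest *P* that 3 against 3 libraries allow is 0.1. In CPM, the reads on a gene scaled by the total over all genes of its library, *Arntl* was at 9.98 to 19.7 in KO+GFP and 14.8 to 15.6 in KO control muscle, beside 12.1 to 17.3 in the 6 KO libraries of the main experiment, which were normalized in another table. The knockout thus left reads on the gene in every group, and a count per gene does not show which exons they came from. The table has no row for GFP, so the transcript of the vector is not analysed here.

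The tissue label held in all 6 libraries. *Acta1*, the actin of skeletal muscle, was at 17991 to 18915 CPM per kilobase of exon in KO+GFP and 18040 to 24065 in control muscle, and *Myh4* at 6199 to 6699 and 8602 to 9751. *Cd79a*, *Ms4a1*, *Cd3e*, *Cd3d*, *S100a8*, and *S100a9*, which define B cells, T cells, and neutrophils, had at most 9.09 normalized counts in any library, and the heart genes *Myh6* and *Nppa* at most 18.01. Depth was 6754312 to 8515400 reads on genes with GFP and 7080054 to 7597712 without, which is below the 10076827 to 41733282 of the main KO libraries, so genes near the filter carry the largest counting error. No library repeated another: between libraries of a group, reads differed by 3.19 to 10.7 times the chi-square that sampling alone gives.

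For 14477 genes whose mean normalized count exceeded 5, log2(normalized count + 1) was compared with limma, and a gene is called higher or lower where its Benjamini-Hochberg adjusted *P* is under 0.05. This rule called 448 genes (3.09% of those tested), 265 higher (1.83%) and 183 lower (1.26%) in KO+GFP muscle. These shares are the background for every count of called list members below. The log2 fold change, KO+GFP minus KO control throughout, had a median of 0.00 over all genes, with 50.6% above 0. A log2 fold change above 1 was found for 114 of the 265 higher genes and one below -1 for 23 of the 183 lower genes. The 2 groups did not overlap for 23.5% of all genes tested and for 447 of the 448 called. edgeR's quasi-likelihood test on the recovered reads called 463 genes and DESeq2 531, and 394 were called by all 3 tools. The count rested on single libraries: it was 108 without KO+GFP 3, 266 without KO+GFP 2, 278 without KO+GFP 1, and 296 without KO control 3, against 657 without KO control 1. A core of 103 genes was called whichever library was left out.

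**Figure D1:**
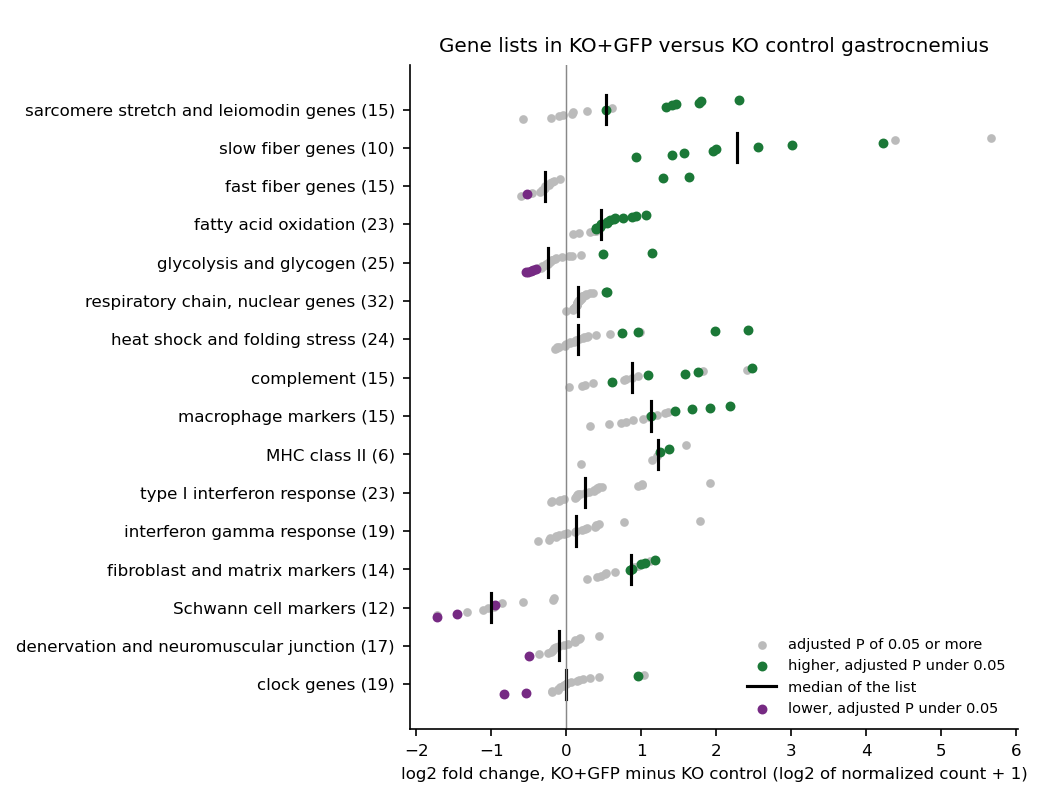
Each point is a gene of the list named at the left (number tested in brackets), placed by its log2 fold change between KO+GFP and KO control gastrocnemius (3 libraries each), with called genes in color and a bar at the list median. The medians run from 2.28 for the slow fiber genes to -1.002 for the Schwann cell markers, and the 2 interferon lists have no called gene.

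Genes of the sarcomere, the contractile unit of the fiber, held several of the smallest *P* values. Of 15 genes of thin filament length, Z-disc, and stretch response, 7 were higher and 0 lower with GFP. The 7 were 46.7% of the list, against 1.83% of all genes tested, and the median log2 fold change was 0.53. *Lmod2* (chr6:24597762-24605414), whose product leiomodin 2 lengthens actin filaments at their pointed ends, had normalized counts of 1221, 1021, and 1134 in KO+GFP and 339, 302, and 326 in control muscle. The groups lay far apart relative to their spread, at 1.80 on the log2 scale (SE 0.10, adjusted *P* = 3.98e-06), the smallest *P* of the experiment. *Lmod3*, its paralog in fast muscle, named here after its values were seen, had overlapping groups at 871, 1034, and 939 against 817, 822, and 1052.

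*Myom3*, a myomesin that crosslinks myosin at the M-band, rose from 498, 427, and 362 to 1111, 1575, and 1387 normalized counts (log2 fold change 1.66, SE 0.14, adjusted *P* = 0.000252). *Myoz2* encodes a Z-disc protein that binds calcineurin and is typical of slow fibers. Its counts were 1123, 1076, and 1026 with GFP and 495, 349, and 346 without, and they differed by 1.46 (SE 0.13, adjusted *P* = 0.000252). *Mybpc1*, slow myosin-binding protein C, had 8483, 12599, and 10233 against 3964, 4486, and 3863 counts, 1.33 apart on the log2 scale (SE 0.13, adjusted *P* = 0.000338). It shares 6% of its exon bases with *Gm48752* on the other strand, which moved by 1.39, and since the strand setting of the counting is not given in the sources used here, the reads of the pair cannot be told apart.

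The stretch-responsive genes *Ankrd2* and *Csrp3* were also higher. *Ankrd2*, which shuttles between titin and the nucleus, had counts of 1705, 1585, and 1629 in KO+GFP and 679.9, 460.3, and 352 in control muscle (log2 fold change 1.77, SE 0.18, adjusted *P* = 0.00041). *Csrp3*, the muscle LIM protein of the Z-disc, had 509, 817, and 612 against 212, 133, and 73.6 (log2 fold change 2.30, SE 0.29, adjusted *P* = 0.00162). Control 1 was the highest control for both genes and control 3 the lowest, and still no control reached a KO+GFP library. *Fhl1*, another LIM protein, was 1.41 higher on the log2 scale and *Tcap*, the titin cap telethonin, 0.53 (adjusted *P* = 0.00571 and 0.0148). *Mybph* was the member nearest to the threshold on the lower side, with a log2 fold change of -0.58 (adjusted *P* = 0.074). The list had 6 or 7 calls whichever library was left out, 7 with edgeR, and 8 with DESeq2.

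Slow fiber genes had the largest list median. All 10 had higher counts in each KO+GFP library than in any control, against 11% of all genes tested, and 8 were called. Their median log2 fold change was 2.28. *Tnnc1*, the troponin C of slow and cardiac muscle, had 624, 407, and 489.96 normalized counts with GFP and 279, 4.55, and 11.4 without (log2 fold change 4.22, SE 1.01, adjusted *P* = 0.0444). *Tnnt1*, the slow troponin T, had 1279.8, 938, and 1002 against 651, 50.01, and 68.4 (log2 fold change 3.01, SE 0.68, adjusted *P* = 0.0342). The controls spread far more than the KO+GFP libraries, with control 1 well above controls 2 and 3 for both genes. *Myl2*, the slow regulatory light chain, followed at 972, 719, and 800.2 against 376, 47.7, and 148 (log2 fold change 2.56, SE 0.51, adjusted *P* = 0.019), and *Myl3*, the slow essential light chain, at 3147, 2491, and 2678 against 1180.2, 560.3, and 501 (log2 fold change 1.99, SE 0.24, adjusted *P* = 0.00133).

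*Casq2*, the slow and cardiac calcium buffer of the sarcoplasmic reticulum, had controls that lay closer together, with 507, 525, and 369 counts against 862, 951, and 827 with GFP (log2 fold change 0.93, SE 0.13, adjusted *P* = 0.00259). *Tpm3*, *Myh7b*, and *Atp2a2*, the slow tropomyosin, a myosin heavy chain of slow fibers, and the slow calcium pump, passed with log2 fold changes of 1.96, 1.57, and 1.40. The slow myosin heavy chain itself did not pass. Counts of *Myh7* were 5351, 3687, and 4477 with GFP and 2605, 5.68, and 38.3 without, a log2 fold change of 5.66 (95% interval 2.44 to 8.87, adjusted *P* = 0.0625). *Tnni1*, the slow troponin I, had 886, 565, and 649 against 396, 3.41, and 19.7 (log2 fold change 4.38, adjusted *P* = 0.0561).

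The 10 genes together took 0.186% to 0.236% of the reads on genes in KO+GFP muscle and 0.0248% to 0.119% in the controls. In bulk RNA, fewer cells or fibers of a type and less RNA in each cannot be told apart. In the main experiment the share spanned 0.0175% to 0.459% over 6 KO libraries and 0.0289% to 0.307% over 7 KO+AAV libraries. The KO+GFP values thus lie inside the main KO range, whose upper end was a single library from another sequencing site. The main KO libraries from Novogene had 0.208%, 0.0175%, and 0.0967%, and KO+GFP 1, at 0.236%, exceeded all of these. All 10 genes were called without control 1, and 2 to 4 without any other single library. On the recovered reads, edgeR and DESeq2 called 3 each.

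**Figure D2:**
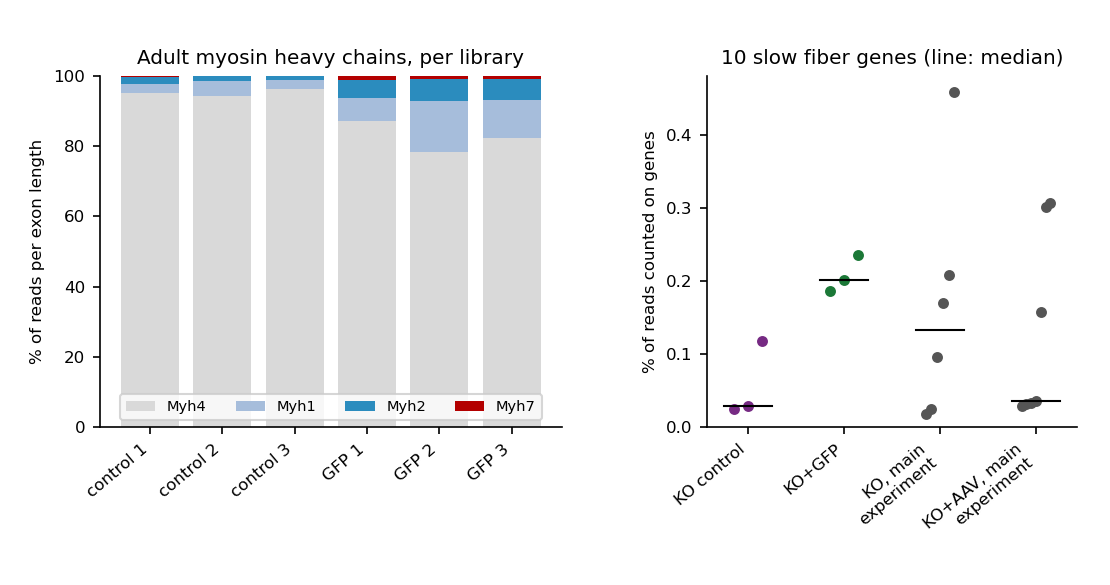
Left, the share of each adult myosin heavy chain among reads per exon length on all 4, as stacked bars for each KO control and KO+GFP library. Right, the percent of reads on the 10 slow fiber genes in each library with a line at the median, where the KO+GFP libraries (0.186% to 0.236%) exceed their controls and lie within the main KO range (0.0175% to 0.459%).

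The myosin heavy chains shifted from *Myh4* toward the other 3. Per exon length, *Myh4* made up 87.3%, 78.3%, and 82.3% of adult myosin heavy chain reads in the KO+GFP libraries and 95.1%, 94.2%, and 96.2% in the controls. *Myh2*, of fast oxidative fibers, made up 5.13%, 6.35%, and 5.92% with GFP and 1.81%, 1.39%, and 1.12% without. *Myh1*, of intermediate fast fibers, made up 6.52%, 14.6%, and 10.8% with GFP and 2.64%, 4.39%, and 2.66% without. The groups did not overlap for any of these shares, which were not tested. Reads of myosin heavy chains may be split between near-identical copies. The main KO libraries again covered a wide range, with *Myh4* at 79.9% to 97.5%, *Myh2* at 0.782% to 8.69%, and *Myh1* at 1.75% to 9.85%. KO+GFP 2 lay below that range for *Myh4*, and KO+GFP 2 and KO+GFP 3 lay above it for *Myh1*.

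Of the 15 fast fiber genes, 2 were higher and 1 lower, and 13 had a log2 fold change below 0 (median -0.28). The higher members were the myosins of the more oxidative fast fibers: *Myh2* rose by 1.63 on the log2 scale (SE 0.17, adjusted *P* = 0.00041) and *Myh1* by 1.29 (SE 0.28, adjusted *P* = 0.0294). *Mybpc2*, fast myosin-binding protein C, fell by 0.53 (SE 0.13, adjusted *P* = 0.0464). *Myh4* had 306401, 271736, and 274168 counts with GFP and 421829, 472024, and 401050 without, a log2 fold change of -0.60 that missed the threshold (adjusted *P* = 0.0946) and passed it with edgeR (0.00371) and DESeq2 (6.5e-07). The 3 calls became 1 without control 3, KO+GFP 2, or KO+GFP 3 and 2 without any other library. Reads of *Myh2* also overlap those of *9430073C21Rik*.

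Genes of fatty acid oxidation, which breaks fatty acids down to acetyl groups inside the mitochondria, had fold changes of 1 sign. All 23 had a log2 fold change above 0, with a median of 0.46. For 19, all KO+GFP libraries lay above the controls, against 11% of all genes tested. At the threshold, 15 were higher (65.2% of the list, against 1.83% of all genes). *Etfa*, which passes electrons from acyl-CoA dehydrogenases to the respiratory chain, had 2148, 1983, and 1986 counts with GFP and 1312, 1364, and 1255 without (log2 fold change 0.64, SE 0.08, adjusted *P* = 0.00144). *Acaa2*, the mitochondrial thiolase, had 1590.4, 1333, and 1413 against 849, 866, and 659 (log2 fold change 0.88, SE 0.11, adjusted *P* = 0.00172). *Ucp3*, the uncoupling protein of muscle mitochondria, had 1554, 1114, and 1145 against 829.8, 557, and 476 (log2 fold change 1.06, SE 0.18, adjusted *P* = 0.00844). No control library reached a KO+GFP library for any of the 3.

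Further genes of the pathway rose as well: *Acadvl*, the very-long-chain acyl-CoA dehydrogenase, by 0.54 (43% of its exon bases are shared with *Dvl2*), and, named after their values were seen, *Cd36*, the fatty acid transporter, by 0.76, *Lpl*, lipoprotein lipase, by 0.93, and *Acadm*, the medium-chain dehydrogenase, by 0.45. The 15 calls fell to 3 without KO+GFP 3, 5 without KO+GFP 1, and 6 without control 3, and were 12 to 15 without any other library. edgeR and DESeq2 called 16 each. The slow fiber share of reads, 0.186% to 0.236% with GFP and 0.0248% to 0.119% without, moved with these genes, and its part in the metabolic results was not tested.

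*Pdk4* (chr6:5483351-5496309), the kinase that turns off pyruvate dehydrogenase when fat is burned and an output gene of the muscle clock, had 13411, 11625, and 12462 counts with GFP and 3812, 4293, and 1737 without. On the log2 scale it rose by 2.03 (SE 0.25, adjusted *P* = 0.00142). In CPM, the KO+GFP libraries held 1653 to 1764, above the 141 to 920 of the main KO and the 108 to 867 of the KO+AAV libraries. *Mb*, myoglobin, named after its values were seen, rose by 1.05 (SE 0.13, adjusted *P* = 0.00171), though 32% of its exon bases are shared with *Gm49540*. *Pank1*, which starts coenzyme A synthesis, rose by 1.68 from 66.5, 95.5, and 60.1 to 259, 235, and 214 counts (adjusted *P* = 0.00041).

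Glycolysis and glycogen genes leaned the other way. Of 25, 20 had a log2 fold change below 0 (median -0.24), 4 were lower, and 2 were higher. The calls were 24% of the list, against 3.09% of all genes tested. *Pygm*, muscle glycogen phosphorylase, named with *Gpi1* after their values were seen, had 51105, 43931, and 47275 counts with GFP and 62194, 72472, and 67373 without (log2 fold change -0.51, SE 0.12, adjusted *P* = 0.0466). The other lower genes were *Pgm1*, phosphoglucomutase, *Phka1*, a phosphorylase kinase subunit, and *Gpi1*, glucose-6-phosphate isomerase, at -0.47, -0.45, and -0.41. The higher members were *Ldhb* and *Gbe1*. *Ldhb*, the lactate dehydrogenase subunit of oxidative fibers and heart, rose from 1300.3, 1100.2, and 742 to 2382, 2140.5, and 2252 counts (log2 fold change 1.14, SE 0.16, adjusted *P* = 0.00269). *Gbe1*, the glycogen branching enzyme, rose by 0.49 (adjusted *P* = 0.0258). The 6 calls of the list became 1 without control 2 or KO+GFP 3, 2 without KO+GFP 1, and 3 without control 3 or KO+GFP 2. edgeR called 8 and DESeq2 9.

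*Prkag3*, the regulatory subunit of AMP-activated kinase in fast glycolytic fibers, fell from 2119, 1922, and 2995 to 1060.3, 1079, and 1039.8 counts, with 3 nearly equal KO+GFP libraries and a change of -1.12 (SE 0.13, adjusted *P* = 0.00125). The nuclear genes of the respiratory chain moved little: all 32 lay above 0 with a median of 0.16, and 2 passed (6.25%, against 3.09% of all genes tested). They were *Sdhb* of complex II at 0.54 and *Ndufb3* of complex I at 0.53 (adjusted *P* = 0.00882 and 0.00855). Without KO+GFP 3, 0 passed. Of the 13 transcripts of the mitochondrial genome, with a median of 0.26, limma, edgeR, and DESeq2 each called 0, and 2 had an unadjusted limma *P* under 0.05.

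**Figure D3:**
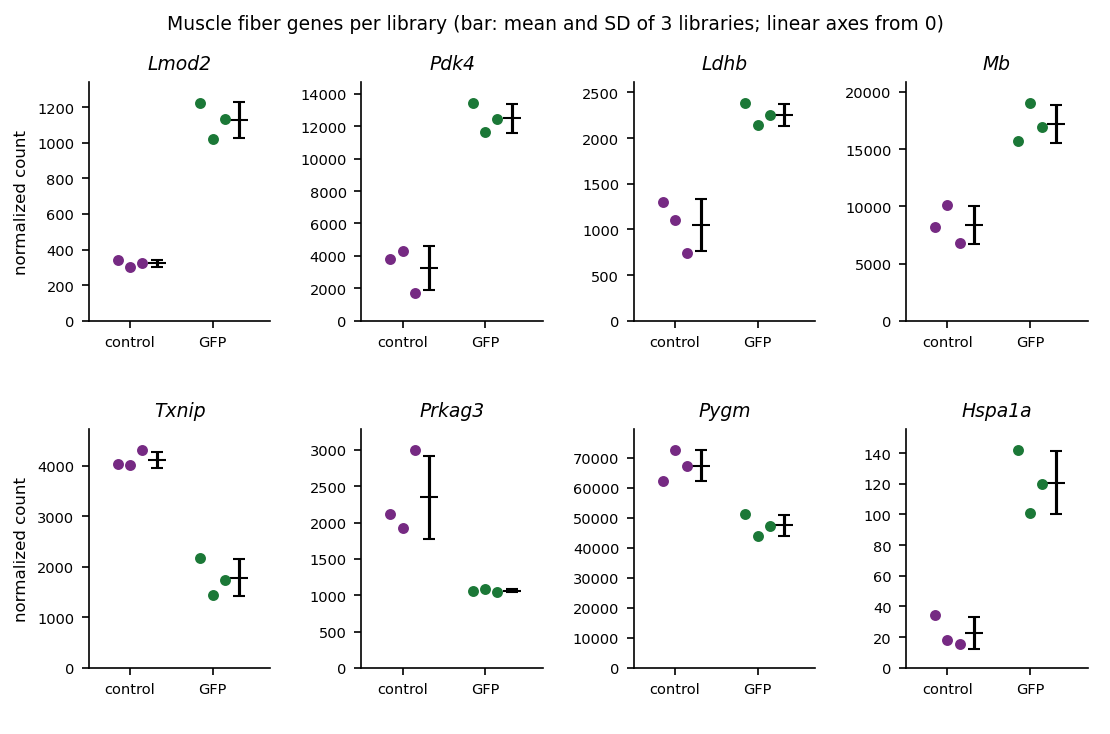
Normalized counts of 8 genes in each KO control and KO+GFP library (points), with the mean and SD of 3 libraries beside them, on linear axes that start at 0. *Lmod2*, *Pdk4*, *Ldhb*, *Mb*, and *Hspa1a* are higher and *Txnip*, *Prkag3*, and *Pygm* lower in every KO+GFP library than in any control.

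*Txnip* encodes an inhibitor of thioredoxin that also restrains glucose uptake, and its transcription is known to respond to glucose. Counts were 2181, 1439.9, and 1739.5 with GFP and 4043, 4014, and 4311 without, so the KO+GFP libraries held 43.4% of the control mean, and they differed by -1.23 (SE 0.13, adjusted *P* = 0.00041). The controls lay close together, KO+GFP 1 was the highest of its group, and 19% of the exon bases are shared with *Gm15441*. Its promoter is shown because it carries the short motif bound by the glucose-responsive factors for which the gene is known. In the 250 bases before the RefSeq start (GRCm38.p6, chr3:96557707-96557956, plus strand), CACGNG on either strand, in capitals, matches 4 times, with first bases at -160, -85, -74, and -52 from the start.

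Txnip: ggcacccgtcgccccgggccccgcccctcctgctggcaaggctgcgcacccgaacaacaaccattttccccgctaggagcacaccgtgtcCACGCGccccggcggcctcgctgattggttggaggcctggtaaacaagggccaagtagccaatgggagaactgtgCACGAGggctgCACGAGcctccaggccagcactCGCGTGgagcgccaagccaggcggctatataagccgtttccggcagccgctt

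At least 1 match lies in 23.5% of 32851 promoters of this length and at least 4 in 0.244%. A match is a description and not a binding site or a cause.

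Heat shock genes split into a small group that rose and a majority that did not pass. Of 24 heat shock and folding stress genes, 4 were higher (16.7%, against 1.83% of all genes tested) and 0 lower, with a median of 0.15. *Hspa1a* and *Hspa1b*, the pair of genes for the inducible chaperone HSP70, moved furthest. *Hspa1a* had 142, 101, and 119.8 counts with GFP and 34.7, 18.2, and 15.5 without (log2 fold change 2.42, SE 0.27, adjusted *P* = 0.000879). *Hspa1b* had 74.3, 107, and 97.8 against 29.8, 20.46, and 18.7 (log2 fold change 1.99, SE 0.23, adjusted *P* = 0.00107). Every KO+GFP library was above every control for both, but the genes are near-identical copies, so reads may have been split between them. Their promoters are printed to show how alike they are where the heat shock factor can bind: 247 of the 250 bases before the start (98.8%) are the same at the same position. GAANNTTC, the core of a heat shock element, which reads alike on both strands, is in capitals and begins at -104 in each. Both lie on the minus strand of GRCm38.p6, *Hspa1a* at chr17:34972157-34972406 and *Hspa1b* at chr17:34959239-34959488, with sequence from RefSeq.

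Hspa1a: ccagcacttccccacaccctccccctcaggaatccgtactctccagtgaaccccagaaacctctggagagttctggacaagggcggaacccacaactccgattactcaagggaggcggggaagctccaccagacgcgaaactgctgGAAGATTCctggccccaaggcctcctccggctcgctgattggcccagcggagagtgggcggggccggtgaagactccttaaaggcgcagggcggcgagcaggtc
Hspa1b: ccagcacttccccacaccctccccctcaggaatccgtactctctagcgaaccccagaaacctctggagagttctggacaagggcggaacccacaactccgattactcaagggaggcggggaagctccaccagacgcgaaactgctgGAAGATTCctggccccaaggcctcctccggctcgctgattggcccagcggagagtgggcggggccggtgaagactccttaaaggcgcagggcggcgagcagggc

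The motif is in 6.69% of promoters of this length. The other called members are small chaperones of the sarcomere. *Hspb7* had 2725, 3231, and 3016 counts with GFP and 1622, 1469.6, and 1529 without (log2 fold change 0.95, SE 0.09, adjusted *P* = 0.000299), and *Cryab*, alpha B-crystallin, had 3789.8, 3519, and 3769 against 2311, 1940.1, and 2369 (log2 fold change 0.75, SE 0.09, adjusted *P* = 0.00142). The list had 6 calls without control 1 and 4 without any other library. Exon bases are shared by *Hspa1a* with *Gm20481* and by *Cryab* with *Hspb2*. The metallothioneins, which bind zinc and copper and rise with metals and glucocorticoids, were also higher: *Mt1* at 116, 69.4, and 92.5 against 39.7, 46.6, and 47.7 (log2 fold change 1.01, SE 0.21, adjusted *P* = 0.022) and *Mt2* at 94.5, 31.4, and 82.0 against 9.93, 13.6, and 12.4 (log2 fold change 2.30, SE 0.37, adjusted *P* = 0.00628). KO+GFP 2 was the lowest of its group for both, and 73% of the *Mt2* exon bases are shared with *Gm45774*. Among 12 p53 targets, limma, edgeR, and DESeq2 each called 0, with 5 at an unadjusted limma *P* under 0.05, and the list median was -0.28.

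Complement genes leaned upward with GFP. All 15 had a log2 fold change above 0 (median 0.88), 5 were called higher (33.3%, against 1.83% of all genes tested), and 0 lower. *C1qa* (chr4:136895917-136898803), a chain of the C1q complex that macrophages make in muscle and that starts the classical pathway, had 63.0, 71.0, and 60.8 normalized counts with GFP and 10.9, 12.50, and 9.33 without. The groups were 5.95-fold apart in their means, a log2 difference of 2.47 (SE 0.24, adjusted *P* = 0.00037). The other C1q chains followed, *C1qc* at 51.8, 67.7, and 48.5 against 13.9, 20.46, and 13.5 (log2 fold change 1.76, SE 0.26, adjusted *P* = 0.00371) and *C1qb* at 46.1, 58.7, and 54.6 against 13.9, 22.7, and 15.5 (log2 fold change 1.58, SE 0.26, adjusted *P* = 0.00638). *C3*, the central component of all pathways, had 125, 128, and 121 against 56.6, 48.9, and 71.5 (log2 fold change 1.08, SE 0.17, adjusted *P* = 0.00507), and *Serping1*, the C1 inhibitor, named after its values were seen, rose by 0.61 (adjusted *P* = 0.0167). The list had 3 calls without KO+GFP 3 and 4 to 6 without any other library. Macrophage markers, described next, moved with these genes, and their part in the result was not tested.

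Markers of macrophages lay above 0 for all 15 genes tested, with a median of 1.12. Of these, 5 were called higher (33.3%, against 1.83% of all genes). *Cd163*, the hemoglobin scavenger receptor of resident macrophages, had 70.9, 54.5, and 50.2 counts with GFP and 16.9, 20.46, and 15.5 without (log2 fold change 1.67, SE 0.24, adjusted *P* = 0.00323). *Csf1r*, the receptor on which these cells depend, had 106, 155, and 137 against 58.6, 62.5, and 58.0 (log2 fold change 1.12, SE 0.17, adjusted *P* = 0.00408). *Lyve1*, a hyaluronan receptor of resident macrophages and lymphatics, and *Lyz2*, the lysozyme of myeloid cells, rose by 2.18 and 1.44 (adjusted *P* = 0.0332 and 0.0235), and *Adgre1*, which encodes F4/80, by 1.91 from 3.97, 10.2, and 4.15 to 14.6, 31.4, and 29.1 counts. *Cd68*, a lysosomal marker, did not pass at 24.8, 12.4, and 22.03 against 7.94, 12.50, and 9.33. Together the 18 markers took 0.00918% to 0.0140% of reads with GFP and 0.00407% to 0.00633% without, and 0.00283% to 0.00908% in the main KO libraries. Calls numbered 2 without control 3, KO+GFP 2, or KO+GFP 3 and 4 to 6 without any other library.

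Of 6 MHC class II genes tested, 2 were higher. *Cd74*, the invariant chain, had 198, 387, and 239.7 counts with GFP and 92.3, 141, and 81.9 without (log2 fold change 1.36, SE 0.24, adjusted *P* = 0.0104), and *H2-Eb1* had 118, 199, and 173 against 54.6, 98.9, and 54.9 (log2 fold change 1.246, SE 0.24, adjusted *P* = 0.0185). KO+GFP 2 and control 2 were the highest libraries of their groups for both. *H2-Aa* and *H2-Ab1* moved by 1.14 and 1.21 without passing (both adjusted *P* = 0.0683), and control 2 overlapped KO+GFP for each. Without control 2 the list had 4 calls, without control 3 or KO+GFP 2 it had 1, and without KO+GFP 3 it had 0. *Mmp9*, the gelatinase of neutrophils and macrophages, rose from 4.96, 7.96, and 3.11 to 15.8, 29.7, and 22.03 (log2 fold change 1.92, adjusted *P* = 0.0292), while *S100a8* and *S100a9*, which define neutrophils, had at most 2.64 counts. Of 10 dendritic cell markers, 3 were tested and 2 were called. *Clec10a*, a lectin of dendritic cells and macrophages, and *Zbtb46*, a factor of dendritic cells and endothelium, rose by 2.13 and 0.76 (adjusted *P* = 0.0489 and 0.0315). The third, *Clec9a*, did not pass, with a log2 fold change of -0.37. *Mmp9* did not pass without control 3, KO+GFP 2, or KO+GFP 3. Of the dendritic cell markers, 1 passed without control 2 or control 3 and 0 without any other library.

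Interferon and lymphocyte genes gave few or no calls. Log2 fold changes lay above 0 for 18 of 23 type I interferon genes (median 0.25). They lay above 0 for 12 of 19 interferon gamma genes (median 0.13) and 13 of 19 MHC class I genes (median 0.07). Over all genes tested, 50.6% lay above 0. For the type I interferon response, limma called 0 of 23 genes (2 at an unadjusted *P* under 0.05), edgeR 0, DESeq2 1, and limma without control 1 also 1. For the interferon gamma response limma, edgeR, and DESeq2 each called 0 of 19 (1 at an unadjusted limma *P* under 0.05), and for MHC class I and peptide loading each called 0 of 19 (0 at that *P*). The member nearest to the threshold was *Oas2*, an antiviral enzyme, at 34.9, 28.9, and 37.9 against 15.9, 19.3, and 15.5 (log2 fold change 0.96, adjusted *P* = 0.0671). None of 18 T and NK cell markers reached a mean count of 5. Of 14 genes for the sensing of nucleic acids, 13 had a log2 fold change above 0 (median 0.35). *Tlr4* was the 1 called (7.14%, against 3.09% of all genes tested). Its counts were 42.8, 21.5, and 22.9 with GFP and 8.93, 9.09, and 6.22 without (log2 fold change 1.67, SE 0.36, adjusted *P* = 0.0269). It did not pass without control 3, KO+GFP 1, or KO+GFP 3. TLR4 is known as the receptor for bacterial lipopolysaccharide, and *Tlr9*, the receptor for DNA, was below the filter.

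Of 14 B and plasma cell genes, 3 were tested, of which 1 was lower, 2 had a log2 fold change above 0, and the median was 0.04. *Ighm*, the constant region of immunoglobulin M, was the lower one. Counts were 521, 331, and 446 in the KO+GFP libraries and 1217, 1482, and 1279.9 in the controls, 32.6% of the control mean, a log2 difference of -1.63 (SE 0.14, adjusted *P* = 0.000252). The other members tested did not pass: *Mzb1*, a chaperone of antibody-secreting cells, had 11.3, 9.09, and 14.1 with GFP and 7.94, 2.27, and 6.22 without (log2 fold change 1.05, adjusted *P* = 0.264), and *Ebf1*, a B cell factor also found in other cells, had 47.3, 57.0, and 49.3 against 64.5, 38.6, and 48.7. The B cell markers *Cd79a* and *Ms4a1* had at most 5.18 counts in any library. In CPM, *Ighm* was at 47.1 to 68.5 with GFP and 161 to 184 in the controls, beside 85.8 to 151 in the main KO and 29.9 to 86.9 in the KO+AAV libraries. The KO+GFP libraries thus lay below the main KO range and their controls above it, in tables that were normalized separately.

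**Figure D4:**
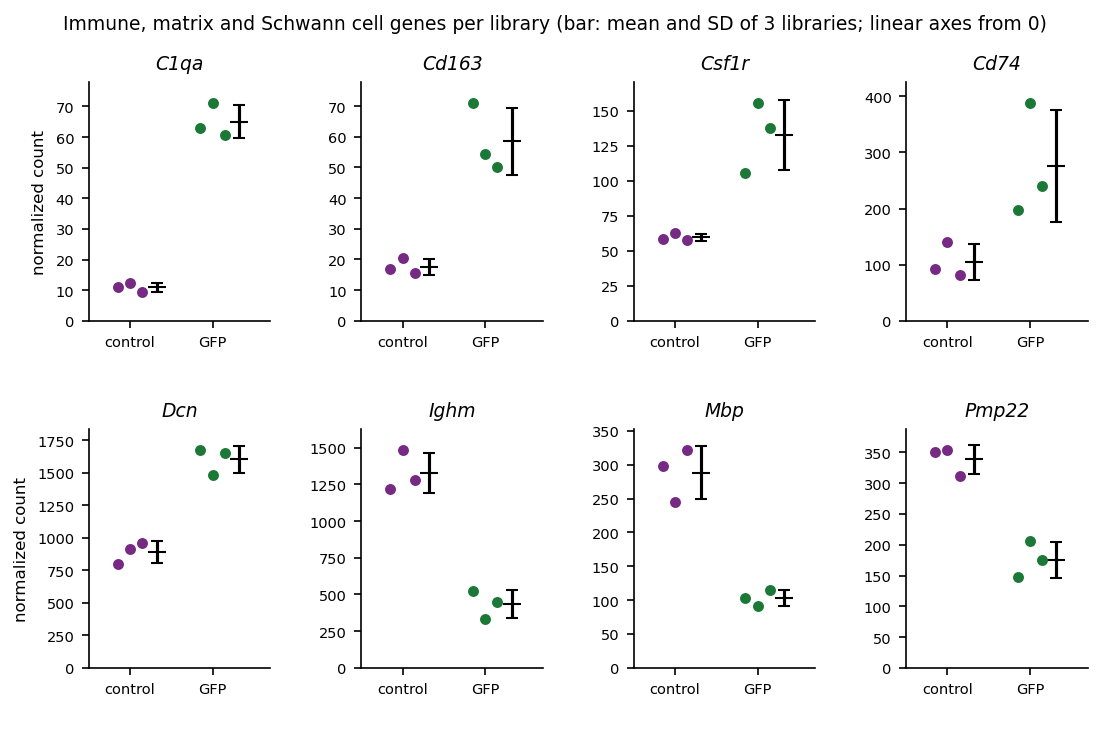
Normalized counts of 8 genes of immune cells, matrix, and Schwann cells in each KO control and KO+GFP library (points), with the mean and SD of 3 libraries beside them, on linear axes that start at 0. *C1qa*, *Cd163*, *Csf1r*, *Cd74*, and *Dcn* are higher and *Ighm*, *Mbp*, and *Pmp22* lower in every KO+GFP library than in any control.

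Genes of fibroblasts and their matrix were above 0 for all 14 members, with a median of 0.86. Of these, 5 were called higher (35.7%, against 1.83% of all genes tested). *Dcn*, decorin, had 1673, 1482, and 1653 counts with GFP and 798, 914, and 959 without (log2 fold change 0.85, SE 0.09, adjusted *P* = 0.000754). *Fbn1*, fibrillin, had 559, 766, and 624 against 325, 328, and 286 (log2 fold change 1.04, SE 0.12, adjusted *P* = 0.000938), with 20% of its exon bases shared with *Gm9913*. *Pdgfra*, the receptor that marks these cells and a receptor of other AAV serotypes, rose by 0.997, and *Lum*, lumican, by 1.17 (adjusted *P* = 0.00793 and 0.0113). *Gsn*, gelsolin, which severs actin and is abundant in fibroblasts, rose from 2062, 2057, and 1853 to 3526, 3865, and 3618 (log2 fold change 0.88, SE 0.08, adjusted *P* = 0.000299). The list had 9 calls without KO+GFP 1, 8 without control 3, and 2 without KO+GFP 3. Together the 14 genes took 0.166% to 0.298% of reads with GFP and 0.0908% to 0.223% in the controls, so the groups overlapped. The main KO libraries held 0.0873% to 0.272%.

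Control 3 stood apart in tendon genes. *Tnmd*, tenomodulin, had 96.8, 139, and 105 counts with GFP and 28.8, 39.8, and 143 in controls 1 to 3, and *Col12a1*, a collagen of tendon sheaths, 138, 138, and 153 against 40.7, 33.0, and 168. With the 3 controls, limma, edgeR, and DESeq2 each called 0 of 8 tendon genes (2 at an unadjusted limma *P* under 0.05), and without control 3 limma called 4. The part of tendon tissue in the matrix results was not tested.

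Schwann cell markers leaned downward. All 12 genes tested had a log2 fold change below 0 (median -1.002), and 3 were called, against 1.26% of all genes called lower. *Mbp*, myelin basic protein, had 104, 91.7, and 115 normalized counts with GFP and 298, 245, and 321 without (log2 fold change -1.46, SE 0.14, adjusted *P* = 0.000299). *Pmp22*, another protein of compact myelin, had 147, 206, and 174 against 350.4, 353, and 312 (log2 fold change -0.95, SE 0.13, adjusted *P* = 0.00251). The KO+GFP mean of *Mbp* was 35.9% of the control mean, and for both genes no library of a group reached the other.

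*Prx*, periaxin, and *Mal*, also of myelin, had log2 fold changes of -0.97 and -1.72 that missed the threshold (adjusted *P* = 0.0731 and 0.074). The 15 markers took 0.00979% to 0.0124% of reads with GFP, 0.0186% to 0.0231% in the controls, and 0.0121% to 0.0555% in the main KO libraries. Leaving out any 1 library left 3 or 4 calls, and edgeR called 3 and DESeq2 5. At the synapse, 1 of 17 genes for denervation and the neuromuscular junction passed (5.88%, against 3.09% of all genes tested). *Chrna1*, the alpha subunit of the acetylcholine receptor, had 207, 216, and 212 counts with GFP and 312, 265, and 329 without (log2 fold change -0.50, SE 0.11, adjusted *P* = 0.0314), and *Chrne*, the adult epsilon subunit, did not pass at -0.37 (adjusted *P* = 0.129). The call of *Chrna1* was lost without any 1 library other than control 2.

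Clock genes of the KO muscle moved in both directions, with log2 fold changes from -0.84 to 1.04 and a median of -0.01. Of 19, 1 was higher and 2 lower (15.8% called, against 3.09% of all genes tested). *Per2*, a repressor of the clock, had 51.8, 79.3, and 62.6 counts with GFP and 29.8, 31.8, and 35.2 without (log2 fold change 0.96, SE 0.21, adjusted *P* = 0.0324). *Nr1d1*, which encodes REV-ERB alpha, had 253, 276, and 321 against 351, 444, and 438 (log2 fold change -0.54, SE 0.12, adjusted *P* = 0.0386), and *Bhlhe41*, the repressor DEC2, had 189, 223, and 206 against 243, 438, and 469 (log2 fold change -0.84, SE 0.20, adjusted *P* = 0.045). The list had 0 calls without control 2, control 3, KO+GFP 2, or KO+GFP 3, 1 without KO+GFP 1, and 2 without control 1. Of 13 output genes of the muscle clock, *Pdk4*, *Tcap*, and *Tbc1d1* were higher, the last, a regulator of glucose transporter traffic, at 68.7, 211, and 133 against 60.6, 46.6, and 46.6 (log2 fold change 1.27, SE 0.31, adjusted *P* = 0.0495). These 3 calls became 1 without KO+GFP 3, 5 without control 1, and 2 without any other library.

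Calcium handling genes had 2 higher members, both of slow fibers (*Casq2* and *Atp2a2*, above), and 3 lower ones. *Jph1*, junctophilin, which holds the triad together, had 2951, 2607, and 2657 counts with GFP and 3699.5, 3894, and 4419 without (log2 fold change -0.55, SE 0.09, adjusted *P* = 0.00793). *Clcn1*, the chloride channel of the fiber membrane, fell by 0.40 (adjusted *P* = 0.0243). The 5 calls became 1 without KO+GFP 3, 2 without control 3 or KO+GFP 2, and 3 without control 2 or KO+GFP 1.

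Several of the lower genes with the smallest *P* belonged to none of the lists. *Sgk1*, the kinase induced by serum and glucocorticoids, had 735, 660.1, and 686 counts with GFP and 1291, 1123, and 1382 without (log2 fold change -0.86, SE 0.10, adjusted *P* = 0.000774). *Mrtfb*, a coactivator of serum response factor, had 225, 239.6, and 279 against 456, 426, and 487 (log2 fold change -0.88, SE 0.11, adjusted *P* = 0.00144). *Srpk3*, a kinase of splicing factors in muscle, had 219, 251, and 243 against 394, 417, and 492 (log2 fold change -0.86, SE 0.11, adjusted *P* = 0.00172). All 3 had tight groups, and a lack of overlap was part of the rule by which they were named.

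*Gadd45g*, a growth arrest gene, fell by 1.57 (SE 0.20, adjusted *P* = 0.00172), *Igf2bp2*, which binds mRNA of growth factors, by 1.49 (SE 0.20, adjusted *P* = 0.0023), and *Six2*, a homeobox factor, by 1.43 (SE 0.19, adjusted *P* = 0.0023). *Gprc5c*, an orphan receptor, fell by 0.99 (SE 0.12, adjusted *P* = 0.00133). *Cpne2*, a calcium-dependent phospholipid-binding protein, had 155, 199, and 194 counts with GFP and 343, 572, and 1011 without (log2 fold change -1.68, SE 0.28, adjusted *P* = 0.00802), where control 3 lay far above controls 1 and 2. Of the higher genes outside the lists, *Ptpn3*, a tyrosine phosphatase, had 673, 819.5, and 755 against 304, 377, and 264 (log2 fold change 1.26, SE 0.13, adjusted *P* = 0.00041).

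Whether the KO+GFP or the control libraries departed from other KO muscle was described with CPM in the 6 main KO libraries, which were prepared and normalized apart. All 3 KO+GFP libraries lay above the whole main KO range for 77 of the 265 higher genes (29.1%, against 5.64% of all genes tested), and below it for 59 of the 183 lower genes (32.2%, against 4.21%). The 3 controls lay below that range for 12 of the 265 (4.53%, against 4.59% of all genes tested) and above it for 21 of the 183 (11.5%, against 2.62%). The called genes were chosen by the values of these same 6 libraries. Larger shares among them than among all genes follow in part from that choice and are not separate support. *Pdk4*, *C1qa*, *C1qc*, *C3*, *Cd163*, *Csf1r*, *Dcn*, *Gsn*, *Hspa1a*, *Hspa1b*, *Mt2*, *Ucp3*, and *Per2* were above the range with GFP. *Mbp*, *Txnip*, *Sgk1*, *Prkag3*, *Six2*, *Igf2bp2*, and *Ighm* were below it. *Lmod2*, *Myoz2*, *Ankrd2*, and all 10 slow fiber genes stayed inside, *Lmod2* at 145 to 161 CPM with GFP, 37.6 to 45.01 in its controls, and 23.3 to 227 in the main KO libraries. Among the genes named, the controls exceeded the range for *Ighm*, *Pygm*, *Phka1*, *Gpi1*, and *Chrne*. They lay below it for *Tlr4*, *Ndufb3*, and *Gabarapl1*, genes called higher with GFP whose KO+GFP libraries did not all lie above the range.

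The vector with *Bmal1* was set beside the one with GFP gene by gene. The comparisons share no library and were normalized and fitted apart, so the difference between them was not tested. For the *Bmal1* vector, 39 of 16055 genes were called at 10 weeks (0.243%) with site in the model. A single KO+AAV library stood apart in macrophage markers, with 0.0913% of reads. The medians of 4 immune and matrix lists were 1.12 with each vector for macrophage markers, 1.23 with GFP and 1.152 with *Bmal1* for MHC class II, 0.88 and 0.63 for complement, and 0.86 and 0.69 for fibroblast genes. No member of these 4 lists was called with *Bmal1*, where *C1qa* moved by 1.36 (adjusted *P* = 0.359) and *Cd163* by 1.17 (adjusted *P* = 0.427). *Ighm* was called in both, at -1.63 with GFP and -1.30 with *Bmal1* (adjusted *P* = 0.0227).

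For other immune lists the medians were 0.76 with GFP and 0.14 with *Bmal1* for dendritic cell markers, 0.35 and 0.18 for nucleic acid sensors, and 0.07 and 0.29 for MHC class I, and the 1 neutrophil marker tested moved by 1.92 and 0.79. Denervation and junction genes were at -0.09 and -0.07. Slow fiber genes were at 2.28 with GFP and -0.32 with *Bmal1*, sarcomere genes at 0.53 and -0.11, fatty acid oxidation at 0.46 and -0.33, and Schwann cell markers at -1.002 and -0.16. *Lmod2* moved by -0.11 with *Bmal1* (adjusted *P* = 0.943), *Pdk4* by -0.07 (0.973), *Txnip* by -0.28 (0.506), and *Hspa1a* by 0.22 (0.822). With the Novogene libraries alone (3 against 3), the *Bmal1* medians turned to 0.62 for slow fiber and 0.32 for sarcomere genes. They were -0.06 for fatty acid oxidation, higher at 1.66 for macrophage markers and 1.68 for MHC class II, and lower at 0.54 for complement and 0.55 for fibroblast genes. Clock genes had medians of -0.01 with GFP and 0.34 with *Bmal1* (0.24 with the Novogene libraries alone), where 6 of them were called. Output genes had medians of 0.16 and 0.49 (0.95 with the Novogene libraries alone), with 3 and 8 called. *Per2* rose in both, by 0.96 and 1.31 (adjusted *P* = 0.00153 with *Bmal1*), and so did *Tbc1d1*, by 1.27 and 1.61 (0.0338).

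**Figure D5:**
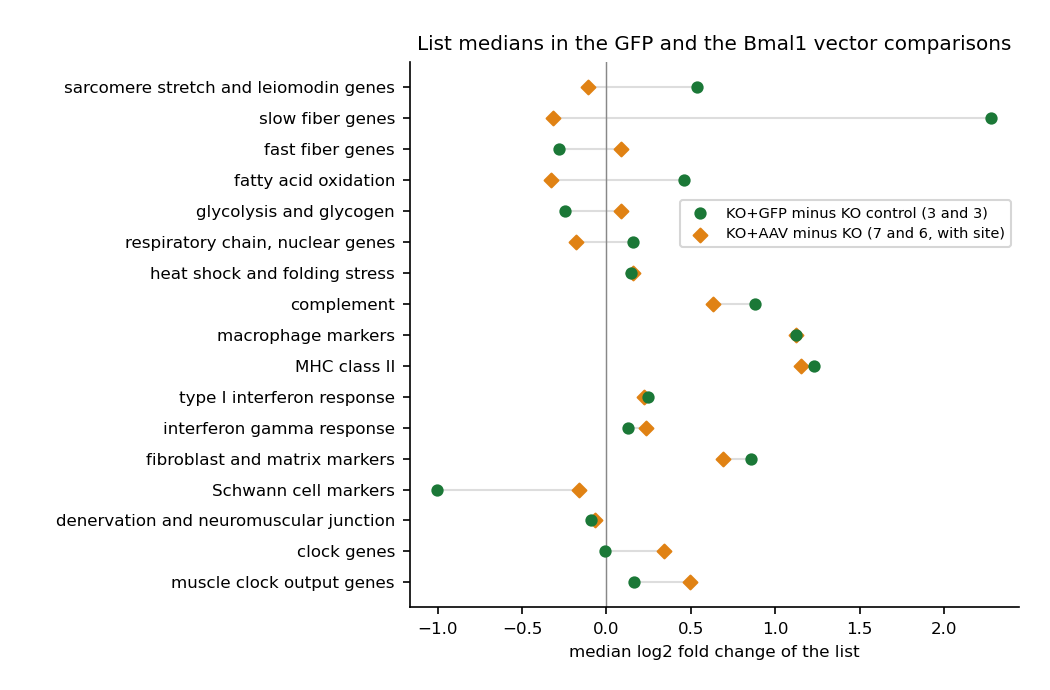
Median log2 fold change of each gene list in KO+GFP versus KO control (circles, 3 and 3 libraries) and in KO+AAV versus KO gastrocnemius at 10 weeks (diamonds, 7 and 6 libraries, sequencing site in the model), joined by a line. The pairs lie close for macrophage markers (1.12 and 1.12) and far apart for slow fiber genes (2.28 and -0.32).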

How the data were processed

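The authors deposited signal values per gene: reads counted with HTSeq after HISAT2 alignment to GRCm38/mm10, per the labels and the submitters' processing notes, each library divided by 1 DESeq2 size factor. The GFP experiment is a separate table of 55401 rows, of which 99.5% matched a GENCODE vM21 symbol, and no column of unmapped samples was present. Steps between low values gave back whole reads (100% of values within 0.01). Groups came from the sample labels. The main test was limma 3.58.1 (R 4.3.3) with a mean-variance trend on log2(normalized count + 1), for genes with a mean above 5, with Benjamini-Hochberg adjustment. Fold changes on this scale understate those of low genes. Annotation release and strand setting of the counting are not given in the sources used here. edgeR 4.0.16 and DESeq2 1.42.0 on the recovered reads, another pseudocount, other filters, TMM scaling, quality weights, a replicate block, and each library left out were alternatives, and the fits were tested on simulated data. *Arntl* had an exact permutation test. Summaries used Python 3.11.15 with pandas 2.3.3 and figures matplotlib 3.10.9. KO+AAV versus KO was fitted in its own table with sequencing site as a term.

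Genes named are *Arntl*, defining markers, and up to 4 genes with the smallest *P* per list. In each direction, the 12 smallest *P* among called genes without overlap and the 3 largest fold changes among called genes were added. Both required a minimum mean count. Other genes were named after their values were seen. The experiment, the lists, and the rules were chosen with earlier results of these data known. Promoters came from RefSeq (GRCm38.p6) and shared exons from GENCODE. Counting limits follow the depth, 6754312 to 8515400 reads per library. A few list members are not reported here by name.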

Additional observations from a re-analysis of the deposited data

Results flagged for a closer look

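Each of the following values was picked out because the highest library of its group lay far from the others by Dixon's criterion at the 95% level, which chance meets in about 1 of 20 groups. All concern the main experiment, since groups of 3 were not examined. Several selected genes and lists were each examined in the KO and KO+AAV groups, so single flags can arise by chance.

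In KO+AAV gastrocnemius at 10 weeks, 1 of 7 libraries had 40.7 CPM of *C1qa* (reads scaled to the library total), with a gap of 0.686 of the range of the group to the next library. The macrophage markers of the same group took 0.0913% of reads in 1 library, with a gap of 0.839. In KO gastrocnemius at 10 weeks, the Schwann cell markers took 0.0555% of reads in 1 of 6 libraries (gap 0.718). That value set the upper end of the KO range given for these markers, which reached up to 0.0124% in the KO+GFP libraries against a lowest KO value of 0.0121%.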

How the results depend on the processing

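The 448 calls (1193 at an unadjusted *P* under 0.01) were 443 with a pseudocount of 0.5, 579 with no filter, 428 above a mean of 50, 463 with edgeR, 531 with DESeq2, 444 with TMM scaling, and 868 with quality weights. With 1 library left out they ranged from 108 to 657 (671 to 1249 at *P* under 0.01). Deviations of same-numbered libraries correlated at 0.0176, 0.00626, and 0.0178 across genes. KO+GFP 1 and KO+GFP 3 correlated best with the control of their own number, and KO+GFP 2 with control 3 (0.00701). Values this small show no clear pairing by number, and they cannot decide whether the libraries were paired. The replicate block gave 493 calls, and 22 in place of 39 for KO+AAV versus KO, which had 7 with the Novogene libraries alone. The change of *Arntl* turned from -0.11 to 0.20 without KO+GFP 2 and was -0.34 without KO+GFP 1 (the range over left-out libraries, smallest exact permutation *P* = 0.1). Over all lists, 84 genes were called, 129 with weights, and 29 to 92 with a library left out. The difference in slow fiber share, 0.151 percentage points, ranged from 0.134 to 0.181 with a library left out. Of 111 genes followed, 93 passed and none changed direction under the 14 alternatives. Without KO+GFP 3, 48 of the 93 no longer passed, against 27, 26, 7, 20, and 27 without KO+GFP 1 and 2 and controls 1, 2, and 3. Of 516 list medians under the alternatives, 491 moved by less than 1 SD. Genes near the filter are limited by depth. The cause of the drop without KO+GFP 3 and of the rise with weights was not tested.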

Other observations

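Fat, breakdown, and developmental genes fall outside the comparisons above. Of 10 adipocyte markers, 9 had a log2 fold change above 0 (median 0.61, but 0.19 without KO+GFP 2, 0.195 without control 2, 1.14 without KO+GFP 1, and 1.06 without control 1), and together they took 0.0861% to 0.105% of reads with GFP and 0.0423% to 0.0726% without. That share rests mostly on *Plin4*, *Car3*, and *Fabp4*, with up to 3122, 3122, and 1559 normalized counts, where the next marker, *Cfd*, had up to 412. The study describes *Car3* as muscle-specific, so the share does not measure fat cells alone. Single markers varied within each group: *Adipoq*, the hormone of fat cells, had 12.4, 109, and 69.6 normalized counts in the KO+GFP libraries and 61.5, 18.2, and 49.7 in the controls, and *Plin1*, which coats their lipid droplets, 25.9, 167, and 107 against 88.3, 17.0, and 52.9, so the groups overlapped for both. The 1 called gene of the 10 was *Plin4*, a lipid droplet gene that muscle fibers also express, at 3122, 1761, and 2256 against 1384, 1217, and 969 (log2 fold change 0.97, SE 0.18, adjusted *P* = 0.0127), a call lost without KO+GFP 3. Of 18 atrophy genes, 3 were higher: *Mt1* and *Mt2*, given above, and *Gabarapl1*, of autophagosomes, by 0.76 (SE 0.15, adjusted *P* = 0.0185), with 0 calls without KO+GFP 3 and 1 without KO+GFP 1. The muscle ubiquitin ligases *Fbxo32* (2647, 2257, and 2374 against 1489.9, 2572, and 1000.1) and *Trim63* (2540.4, 1737, and 2096 against 1578, 2352, and 1973), named after their values were seen, had overlapping groups.

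Of 12 embryonic and regeneration genes, *Myh3*, embryonic myosin heavy chain, was the 1 called, at 42.8, 115, and 75.8 with GFP and 3.97, 12.50, and 32.1 without (log2 fold change 2.48, SE 0.56, adjusted *P* = 0.0339), a call lost with DESeq2 and without control 2, KO+GFP 2, or KO+GFP 3. Limma called 0 of 8 satellite cell genes (2 at an unadjusted *P* under 0.05), 0 of 10 endothelial (3), 0 of 7 smooth muscle and pericyte (3), 0 of 9 chemokine (4), 0 of 5 red blood cell (0), 0 of 3 cardiac (1), and 0 of 4 Fc receptor genes (2). edgeR and DESeq2 called 0 of each as well, except for 1 Fc receptor gene with edgeR. All 4 Fc receptor genes had a log2 fold change above 0 (median 0.945). Of 14 genes for vector attachment and trafficking, *Pdgfra* was the 1 called (7.14%, against 3.09% of all genes tested), and the list median was -0.02.

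Of the genes tested, 1 had no read in any KO+GFP library and reads in all controls, and was chosen for that. *Slc15a2*, a peptide transporter, had 0 reads with GFP and 27, 9, and 21 reads (57 in all) in controls 1 to 3. Against a floor of 3 reads over the group it was at least 20.2-fold lower. The reverse held for 1 gene, *Gm32569*, with 6, 9, and 9 reads in the KO+GFP libraries and 0 in the controls, at least 7.51-fold higher. In the main experiment at 10 weeks, *Slc15a2* was at 1.35 to 8.17 CPM in KO and 0.184 to 8.19 CPM in KO+AAV gastrocnemius.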
